A study of Rattus norvegicus with 42 samples.

Results

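The early response of rat metanephric mesenchyme to leukemia inhibitory factor (LIF) was compared with culture without an inducer on days 1 and 2. These were 8 of the 42 arrays of the series: 4 LIF arrays and 4 control arrays, chosen by their titles as 2 biological replicates per treatment and day. Mesenchyme was dissected from rat kidneys at embryonic day 13.5 and freed of the ureteric bud, the epithelium that induces it in the embryo, with pins after trypsin and DNase digestion. Control and LIF explants grew on collagen-coated transwell filters in the same DMEM/F12 medium with insulin, transferrin, selenium, dexamethasone, prostaglandin and T3, recombinant FGF at 50 ng/ml and a recombinant TGF, of a type the labels do not settle, at 20 ng/ml. They differed only in LIF, whose dose the labels do not give. The control is therefore mesenchyme kept under growth factors and a glucocorticoid, not untreated tissue, and the labels do not say how many embryos made up a sample. The other cultures of the series received NGAL or the ANX fraction, and are used below only where LIF was tested against them.

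LIF is a cytokine of the interleukin-6 family. It binds the LIF receptor, which pairs with gp130 and activates JAK kinases, and these phosphorylate STAT3, a transcription factor whose targets include its own feedback inhibitor Socs3. In kidney development LIF is known as a product of the ureteric bud that can convert isolated rat mesenchyme into epithelium. The mesenchyme holds nephron progenitors, which form nephrons through Pax8, Wnt4 and Notch signalling, and stromal progenitors, which form the interstitium and respond to retinoic acid.

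Levels are log2 intensities of 1 probe set per gene, the one with the highest mean over all arrays, and a difference is LIF minus control within each day, averaged over both days. A gene was called when limma's Benjamini-Hochberg adjusted p was under 0.05 over all 11388 genes tested, and "rose" and "fell" are used of called genes only. The signal threshold was log2 5.79. Where a group mean lay below it, a floored difference is also given, with that mean set to the threshold. It is an estimate from the same arrays that leaves out differences below the threshold. The median difference over all genes tested was 0.03.

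Defining genes of metanephric mesenchyme were measured in the 8 arrays. Eya1 lay between 10.56 and 11.74, Sall1 between 10.42 and 11.40, Wt1 between 9.84 and 11.04 and Hoxa11 between 9.84 and 10.60, while Gdnf, the ligand that draws in the ureteric bud, lay near the threshold (5.46 to 6.46). Cdh1, E-cadherin of the ureteric bud, was below the threshold on all 8 arrays. Six2, Cited1, Osr1 and Foxd1 were not analysed here, since no probe set was assigned to them alone. The arrays differed in technical quality. The dap spike-in is an RNA added before labelling, and its 3'/5' signal ratio grows when labelled copies are short. On the log2 scale this ratio ran from 0.77 to 2.04 in the control arrays and from 0.88 to 2.16 in the LIF arrays. Control day 1 replicate 2 (0.77) lay far from the other controls (1.97, 1.97 and 2.04), and LIF day 2 replicate 2 (2.16) far from the other LIF arrays (0.88, 1.11 and 1.37). The 5S rRNA signal was 7.56 to 10.3 in the controls and 7.00 to 8.70 in the LIF arrays. The first principal component of the 8 arrays (59.6% of the variance) placed the controls at -31.7 to -8.4 and the LIF arrays at 14.9 to 34.6. On it control day 1 replicate 2 (-8.4) was the control closest to the LIF arrays. LIF day 2 replicate 2 (14.9) was the LIF array closest to the controls. The mean ratio of LIF minus that of control was -0.13 on day 1 and -0.49 on day 2 (mean -0.31). A 6-array fit, without control day 1 replicate 1 and LIF day 2 replicate 1, was also run for LIF against control. It was not run for the day difference, NGAL or ANX, and its list counts are given only in part. The fit was chosen after the ratios were seen. Leaving out these arrays turned the gap round without removing it, to 0.47 and 0.16 (mean 0.31). Leaving out LIF day 2 replicate 1 alone gave gaps of -0.13 and 0.16 (mean 0.01).

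LIF changed 2733 of 11388 genes (24%), of which 1303 (11.4%) rose and 1430 (12.6%) fell. Of these, 180 rose and 314 fell by at least 2-fold. The shares of 11.4% and 12.6% are the background for every list count in the mean of both days below. In the 6-array fit 829 of 11388 genes were called, 440 higher and 389 lower. Of these, 818 were among the 2733 with the same sign. All 2733 kept their sign in that fit, while the median size of their differences went from 0.55 to 0.47. The count was 1528 without control day 1 replicate 1, and 1607 without LIF day 2 replicate 1. The fit without that LIF array called 807 of all 11388 genes higher and 800 lower. In that fit 14 genes of the cholesterol list, 17 of the replication list and 12 of the STAT3 list described below rose and 0 fell. Of the nephron progenitor list 7 rose and 0 fell, and 15 of the stroma list and 5 of the endothelial list fell and 0 rose. The 15 genes with the largest rise whose LIF and control arrays did not overlap on either day were Tnfaip6, Bcar3, Bcl3, Fam107a, C1qtnf12, Il1r2, Fbxo2, Plac8, Eya2, Tmem100, Draxin, A2m, Hs3st1, Dmrta1 and Upp1. All 15 stayed called in each fit that left out 1 array and in the 6-array fit.

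Tnfaip6, which encodes a hyaluronan-binding protein of inflamed tissue, was at 3.98 and 4.75 in the day 1 controls, 10.11 and 9.29 with LIF on day 1, 4.96 and 4.73 in the day 2 controls and 8.18 and 6.93 with LIF on day 2. It was below the threshold in every control array and above it in every LIF array. The difference was 4.02 (SE 0.59, adjusted p = 5.19e-05), and 2.84 floored; the mean of the gene's probe sets gave 2.30. Bcl3, an IkappaB-family cofactor of NF-kappaB, was at 6.83 and 5.57 in the day 1 controls against 9.22 and 8.57 with LIF, and at 6.39 and 7.01 in the day 2 controls against 9.26 and 9.05. The LIF arrays all lay above the controls, by 2.58 (SE 0.27, adjusted p = 1.98e-06), and by 1.69 as the mean of its probe sets. Il1r2, the decoy receptor for interleukin-1, was at 5.63 and 5.98 in the controls against 8.24 and 8.26 on day 1, and at 6.51 and 6.50 against 8.94 and 9.09 on day 2 (2.48, SE 0.28, adjusted p = 3.78e-06).

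A2m, alpha-2-macroglobulin, is a protease inhibitor and a classical acute phase protein of the rat. It was at 8.28 and 8.72 in the day 1 controls, 11.39 and 11.25 with LIF, 10.44 and 10.75 in the day 2 controls and 12.55 and 12.28 with LIF. It rose by 2.32 (SE 0.31), and its level also moved between the control days. Eya2, a transcription cofactor related to the mesenchyme gene Eya1, was at 7.03 and 7.02 against 9.39 and 9.74 on day 1, and at 7.86 and 8.13 against 10.28 and 10.15 on day 2 (2.38, SE 0.41, adjusted p = 0.000247). Bcar3, an adaptor of the p130Cas protein, was at 5.29 and 4.60 against 7.66 on both LIF arrays on day 1 and at 5.08 and 5.04 against 7.45 and 7.69 on day 2 (2.61, SE 0.44, floored 1.83). Plac8 rose by 2.41 with day values of 3.72 and 1.09, and C1qtnf12, which encodes the secreted protein adipolin, by 2.50 with day values of 3.39 and 1.60. Neither day difference was called.

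The 15 largest falls under the same rule were those of Ccn2, Aspn, Prlr, Gucy1b1, Foxp2, Capn6, Klhl4, Sema3d, Adamts19, Lum, Prss35, Selenop, Scara5, Adamts9 and Epha3. The calls of Ccn2, Prlr, Gucy1b1, Lum, Prss35 and Scara5 were lost in the 6-array fit, and the other 9 held. Ccn2, connective tissue growth factor, was at 8.01 and 8.39 in the day 1 controls against 5.11 and 4.85 with LIF, and at 9.16 and 9.33 against 4.73 and 5.36 on day 2. Every LIF array lay below the threshold and every control above it. The difference was -3.71 (SE 0.94, adjusted p = 0.00595, floored -2.94), and -3.65 in the 6-array fit (adjusted p = 0.064). Prlr, the prolactin receptor, showed how far replicates could differ: it was at 11 and 9.09 in the day 1 controls, 6.71 and 8.16 with LIF, 11.06 and 10.96 in the day 2 controls and 5.87 and 7.95 with LIF. Its difference was -3.36, -2.36 in the 6-array fit (adjusted p = 0.12) and -1.67 as the mean of its probe sets.

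**Figure D1:**
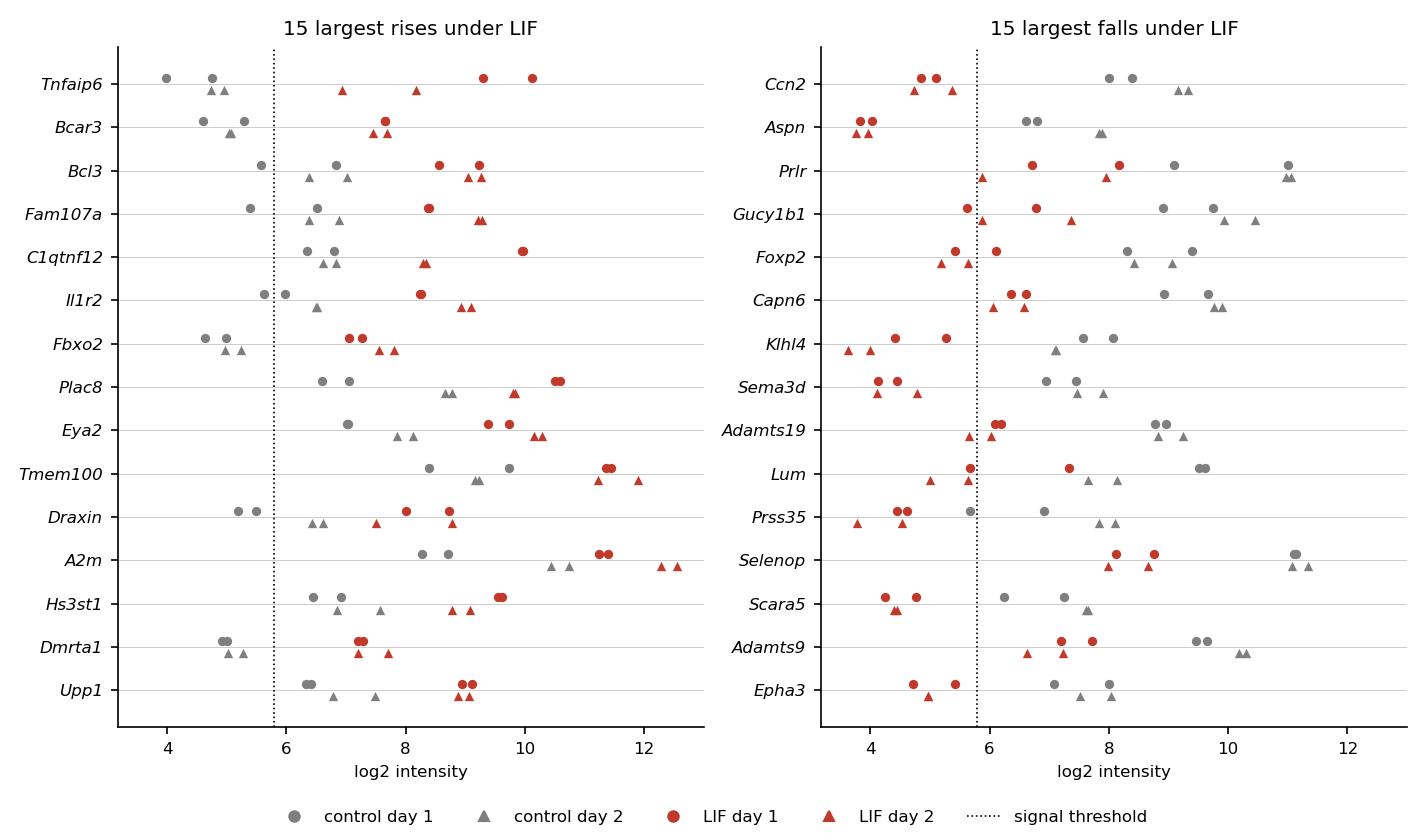
Log2 intensity (x axis) in each of the 8 arrays for the 15 genes with the largest rise (left) and the 15 with the largest fall (right); grey points are controls, red points LIF, circles day 1, triangles day 2, and the dotted line the signal threshold of 5.79. Grey and red points of the same day do not overlap for any of these genes, as the rule required, and Tnfaip6 spans the widest range among the rises.

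No gene of LIF reception was called higher. Of 17 tested members of the receptor, JAK and STAT list 0 rose and 2 fell, with a median of -0.01. This share of falls was near the 12.6% of all genes tested. The members that fell were Gab1 (-0.71, SE 0.14) and Shc1 (-0.38, SE 0.14), adaptors between cytokine receptors and the MAPK cascade. The call of Shc1 (adjusted p = 0.0451) was lost in each of the 8 fits that left out 1 array and in the 6-array fit. Lifr, the LIF receptor, lay near the threshold and was at 0.17 (adjusted p = 0.247), Il6st, which encodes gp130, at -0.46 (adjusted p = 0.513), Jak1 at -0.12 and Jak2 at 0.06. Stat3 was at 10.52 and 8.59 in the day 1 controls, 9.64 and 10.72 with LIF, 11.01 and 10.80 in the day 2 controls and 9.90 and 10.91 with LIF. The groups overlapped on both days (0.06, adjusted p = 0.93). Lif itself lay below the threshold, and Osmr was not analysed here.

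Feedback on the pathway was led by Socs3. It was at 6.50 and 6.48 in the day 1 controls against 8.45 and 8.22 with LIF, and at 6.74 and 6.91 against 8.69 and 7.80 on day 2. All LIF arrays lay above all controls (1.63, SE 0.23, adjusted p = 2.92e-05). Of 13 tested SOCS, PIAS and PIM genes, 3 rose (Socs3, Socs2 and the kinase gene Pim2) and 2 fell, the STAT inhibitors Pias1 (-0.53) and Pias3 (-0.46). Socs2 and Pim2 were below the threshold in all 4 groups, so no size is given for them and no direction is read from their calls. Socs1 (0.05) and Cish (-0.12) did not pass the test. In the 6-array fit Socs3 was the 1 member that rose and 0 fell.

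Among STAT3 targets and acute phase genes 14 of 37 rose and 0 fell, where 11.4% of all genes tested rose, and the list's median difference was 0.41. On day 1 alone 12 rose and 0 fell (median 0.51), where 3.95% of all genes rose, and on day 2 alone 7 rose and 1, Klf4, fell (median 0.13), where 3.61% of all genes rose. In the 6-array fit 11 rose and 0 fell. The mean log2 level of the list was 7.28, 7.26, 7.74 and 7.71 in the controls and 8.23, 8.18, 8.15 and 8.06 in the LIF arrays, which did not overlap. Beside Tnfaip6, Bcl3, Il1r2, A2m and Socs3, the list held Spp1, the matrix protein osteopontin (1.87, SE 0.43, with 2.89 on day 1 and 0.86 on day 2), Irf1, a transcription factor of interferon and cytokine responses (1.25, SE 0.13, adjusted p = 2.14e-06), Cebpb, a transcription factor of the acute phase (1.15, SE 0.31), Icam1, a leukocyte adhesion molecule (1.13, SE 0.22), Junb (0.96, SE 0.20) and the interleukin-1 receptor Il1r1 (0.93, SE 0.20). Il4r, Hif1a and Hp rose by 0.53, 0.51 and 0.41. Several known targets did not pass the test, among them Myc (0.52), Fos (0.26), Timp1 (0.62), Cebpd (0.55) and Klf5 (0.75), and Lcn2, which encodes NGAL, was below the threshold in all 4 groups. Reg3b, a secreted lectin of inflamed tissue singled out after its values were seen, was at 6.44 and 5.59 in the day 1 controls against 10.01 and 10.93 with LIF, but at 9.90 and 9.55 in the day 2 controls against 8.97 and 10.66. It was called on day 1 (4.45, adjusted p = 0.027) and the arrays overlapped on day 2 (0.10).

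**Figure D2:**
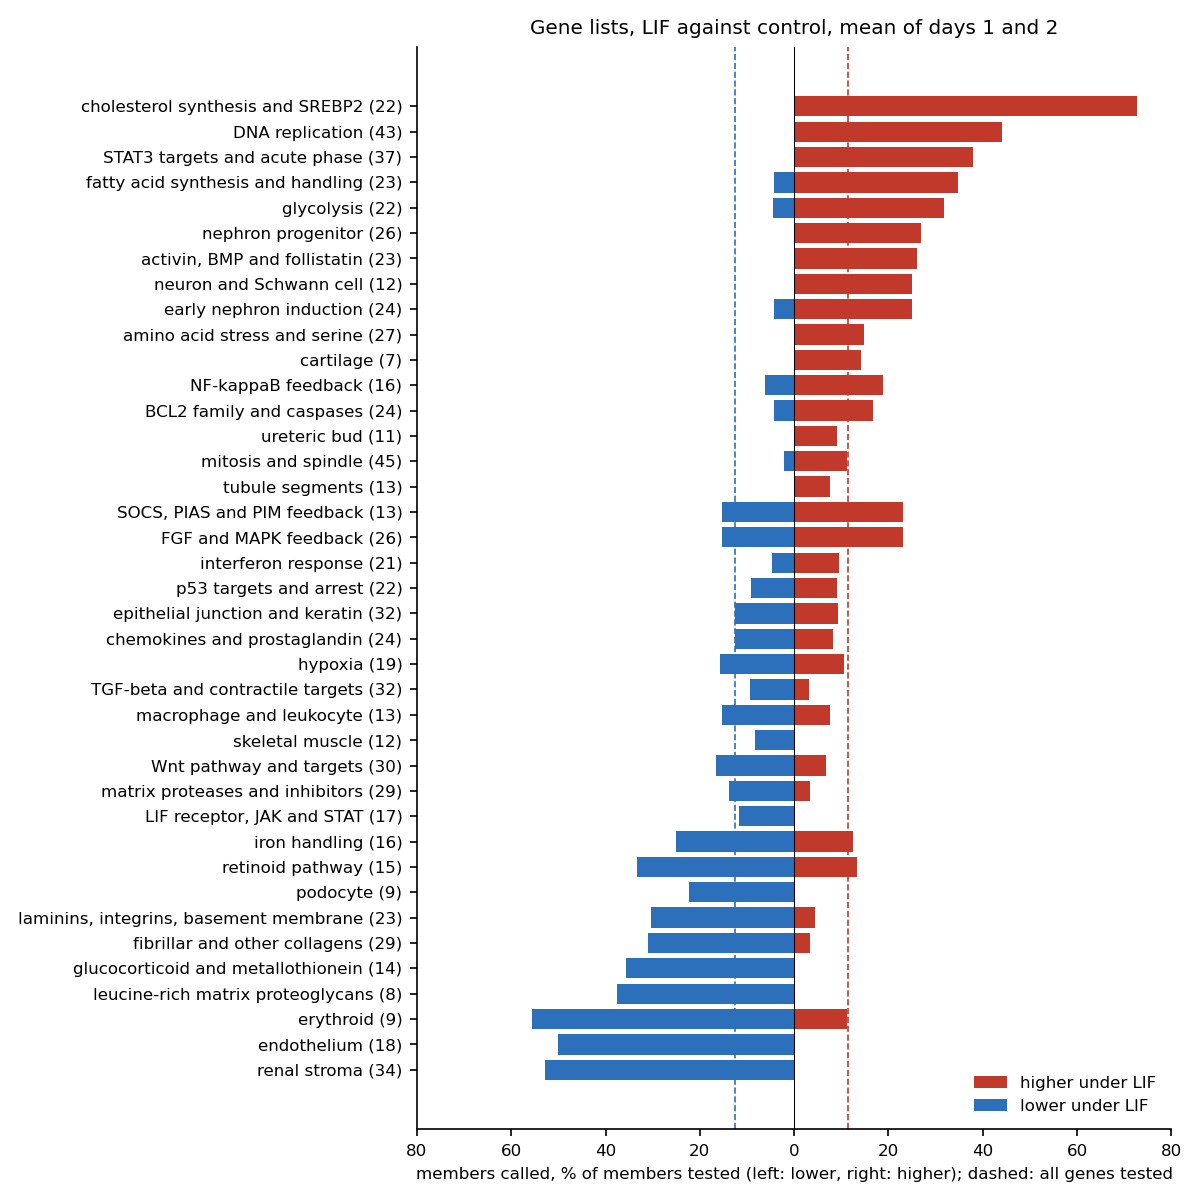
Share of each list's tested members that were called higher (red, right) or lower (blue, left) under LIF, in percent, with the number tested in parentheses; the dashed lines give 11.4% and 12.6% for all genes tested. Cholesterol synthesis, DNA replication and the STAT3 list reach furthest to the right with no member lower, and the erythroid, renal stroma and endothelium lists furthest to the left.

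The promoters of 3 genes that rose are shown because they hold the palindrome that STAT proteins bind. The windows come from RefSeq (build GRCr8) and end at the annotated transcription start. Capitals mark TTCCNGGAA in Icam1 (chr8:27829595-27829844, plus strand, 107 bases before the start) and Igtp (chr10:42874797-42875046, plus strand, 114 bases before), and the looser TTCNNNGAA in Irf1 (chr10:38417685-38417934, plus strand, 142 bases before).
Icam1: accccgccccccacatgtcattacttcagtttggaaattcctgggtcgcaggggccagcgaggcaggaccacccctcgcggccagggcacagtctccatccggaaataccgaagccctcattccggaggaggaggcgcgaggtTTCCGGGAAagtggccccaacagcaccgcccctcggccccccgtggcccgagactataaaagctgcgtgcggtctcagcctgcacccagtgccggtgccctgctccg
Igtp: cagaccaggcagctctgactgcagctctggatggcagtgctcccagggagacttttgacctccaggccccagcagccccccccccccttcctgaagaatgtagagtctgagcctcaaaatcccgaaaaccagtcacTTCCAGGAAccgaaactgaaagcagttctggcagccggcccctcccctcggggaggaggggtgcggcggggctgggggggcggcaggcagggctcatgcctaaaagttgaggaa
Irf1: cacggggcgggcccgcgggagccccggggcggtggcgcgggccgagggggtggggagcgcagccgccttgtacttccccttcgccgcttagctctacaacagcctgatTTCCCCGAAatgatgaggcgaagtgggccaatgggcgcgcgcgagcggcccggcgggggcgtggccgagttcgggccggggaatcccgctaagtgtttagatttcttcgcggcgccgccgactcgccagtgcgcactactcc
Windows were searched on both strands over 250 bases before and 50 after each start, and every TTCCNGGAA is also a TTCNNNGAA. TTCCNGGAA was present in 1.27% of 33469 RefSeq promoters and in 1.37% of the 9445 tested genes that matched one. It was present in 1.89% of the 1112 matched genes that rose and in 1.44% of the 1183 that fell. The looser motif was present in 8.87% of promoters, 7.02% of tested genes, 7.82% of genes that rose and 7.02% of genes that fell. In the STAT3 list TTCCNGGAA was in 2 of 29 matched promoters (Icam1 and Steap4). The windows of Socs3 held neither motif, which says only that these letters are absent from them.

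Of 16 NF-kappaB feedback genes 3 rose and 1 fell, where 11.4% of all genes tested rose and 12.6% fell. Nfkb1, the p105 and p50 subunit gene, was at 8.15 and 8.19 against 9.19 and 9.04 on day 1 and at 8.42 and 8.32 against 9.25 and 9.08 on day 2, with no overlap (0.87, SE 0.09, adjusted p = 1.98e-06). Sod2, mitochondrial superoxide dismutase, rose by 0.69 and Nfkbib by 0.32, and Tnip1 fell by 0.34. Of 24 chemokine and prostaglandin genes 2 rose and 3 fell, shares near the same background, and none was called in the 6-array fit. Ptgs2, cyclooxygenase 2, rose by 1.31 (SE 0.46), while the alarmin Il33 (-2.43, SE 0.53), the chemokine Cxcl12 (-1.41, SE 0.50) and prostacyclin synthase Ptgis (-0.58) fell.

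Interferon response genes as a group stayed near the background, with 2 of 21 higher and 1 lower. Igtp, an interferon-inducible GTPase, was at 6.43 and 5.71 against 7.39 and 7.98 on day 1 and at 6.71 and 7.06 against 8.20 and 8.37 on day 2. It rose by 1.51 (SE 0.17, adjusted p = 3.47e-06), with no overlap between LIF and control arrays. Irf1 was the other member that rose, and Irf7 fell by 0.41.

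Genes of early nephron induction rose in 6 of 24 cases and fell in 1 (median 0.14), and 4 rose and 0 fell in the 6-array fit. Jag1, a Notch ligand, was at 6.61 and 6.15 in the day 1 controls against 8.22 and 8.09 with LIF, and at 6.19 and 6.16 against 7.88 and 8.12 on day 2. It rose by 1.80 (SE 0.26, adjusted p = 4.83e-05), nearly alike on both days (1.77 and 1.83). Pax8, a transcription factor of the first nephron cells, was at 6.92 and 6.97 against 9.71 and 8.82 on day 1 and at 7.79 and 7.42 against 8.79 and 8.68 on day 2. Its LIF arrays lay above the controls on both days, by 2.31 and 1.12 (mean 1.72). Wnt4, the signal that turns mesenchyme into epithelium, was at 8.09 and 6.77 against 9.95 and 10.00 on day 1, but at 9.18 and 8.84 against 8.49 and 9.12 on day 2. Its call in the mean (1.17, adjusted p = 0.0318) rested on day 1 (2.55); on day 2 the arrays overlapped (-0.21), and 6 of the 8 fits that left out 1 array lost it. Fgf8, a survival signal of early nephrons, rose by 1.36 (SE 0.39, floored 1.34), Bmp4 by 1.00 (SE 0.22) and the receptor Notch1 by 0.54, while the Wnt antagonist Sfrp2 fell by 1.79. Lef1 (-0.10) and the Notch target Hes1 (0.09) did not pass the test, and Lhx1 was below the threshold in all 4 groups.

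Nephron progenitor genes rose in 7 of 26 cases and fell in 0, with a median of 0.46, and 2 rose in the 6-array fit. The list's mean level was 8.46, 8.94, 8.52 and 8.37 in the controls and 9.05, 8.98, 9.22 and 9.0 in the LIF arrays, so that control day 1 replicate 2 (8.94) lay next to the lowest LIF array. Tmem100, a membrane protein, was at 8.39 and 9.74 in the day 1 controls against 11.37 and 11.44 with LIF, and at 9.23 and 9.16 against 11.90 and 11.23 on day 2 (2.36, SE 0.44). The homeobox genes Meox2 (1.38, with 0.61 on day 1 and 2.16 on day 2) and Six4 (1.01) rose, as did Crym (0.71), the FGF receptor Fgfr2 (0.63), Etv5 (0.53) and Fgf9 (0.38). The core genes of the progenitor state did not pass the test: Pax2 was at 0.84 (adjusted p = 0.055), Sall1 at 0.55, Wt1 at 0.53, Gdnf at 0.51 and Eya1 at 0.50. On day 1 alone 1 of the 26 rose (Tmem100), a share near the 3.95% of all genes. On day 2 alone 5 did, where 3.61% of all genes rose. In bulk explants a change in the number of cells of a type and a change in RNA per cell cannot be told apart.

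Junction and keratin genes stayed near the background of 11.4% higher and 12.6% lower. Of 32 tested 3 rose, the desmosomal cadherins Dsc2 (1.92, floored 0.14) and Dsg2 (1.57, floored 0.76) and the keratin Krt18 (1.69, lost in 7 of 8 fits that left out 1 array), and 4 fell, among them the claudins Cldn11 (-1.39) and Cldn12 (-0.72). Epcam, an epithelial adhesion molecule, was at 4.99 and 5.20 against 5.54 and 5.39 on day 1 and at 5.13 and 5.09 against 6.14 and 6.15 on day 2, above the threshold only with LIF on day 2 (adjusted p = 0.153). Among 13 tubule segment genes 1 rose, the endocytic receptor Lrp2 (1.40), and 0 fell, and among 9 podocyte genes 0 rose and 2 fell, Synpo (-1.12) and Plce1 (-1.02).

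Of 23 genes in the activin, BMP and follistatin list 6 rose and 0 fell, and 5 rose in the 6-array fit. Fst, follistatin, was at 5.29 and 6.74 against 9.26 and 8.20 on day 1 and at 6.39 and 5.59 against 7.95 and 7.22 on day 2 (2.15, SE 0.38, adjusted p = 0.00033). Nog, the BMP antagonist noggin, was below the threshold in the controls and at 6.74, 6.72, 7.54 and 7.51 with LIF (2.03, SE 0.28, floored 1.34). Fstl3, a relative of follistatin, rose by 1.54, the pseudoreceptor Bambi by 0.94 and the ligand Bmp5 by 0.81. Of 32 TGF-beta and contractile targets 1 rose and 3 fell, where 11.4% of all genes tested rose and 12.6% fell. The BMP target Id1 (1.09, SE 0.14) rose, and Ccn2, the myosin light chain Myl9 (-2.16, SE 0.48) and Skil (-0.46) fell.

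Of 30 Wnt pathway genes 2 rose and 5 fell, where 11.4% of all genes tested rose and 12.6% fell. Frzb, a secreted Wnt antagonist, rose by 1.61 (SE 0.26), and the receptors Fzd8 (-2.04, SE 0.33, floored -1.95) and Fzd1 (-1.30), the agonist Rspo3 (-1.13, SE 0.19) and the feedback gene Nkd1 (-0.69) fell. Of 26 FGF and MAPK feedback genes 6 rose and 4 fell. The MAPK phosphatase genes Dusp5 (1.42, SE 0.32) and Dusp6 (1.06, SE 0.20) and the early gene Ier3 (1.57, SE 0.21) rose, while Jun (-0.99), Errfi1 (-0.87), Spry2 (-0.83) and Egr1 (-0.57) fell. In the 6-array fit these counts were 3 higher and 1 lower.

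Genes of the renal stroma fell. Of 34 tested members 18 fell and 0 rose, where 12.6% of all genes tested fell, with a median of -0.75; 11 fell in the 6-array fit (median -0.68). On day 1 alone 9 fell (4.38% of all genes) and on day 2 alone 12 (4.53% of all genes), with medians of -0.66 and -0.93. The list's mean log2 level was 9.13, 8.92, 9.08 and 9.14 in the controls and 8.20, 8.28, 7.96 and 8.12 in the LIF arrays. Foxp2, a forkhead transcription factor, was at 9.39 and 8.31 against 5.42 and 6.10 on day 1 and at 8.42 and 9.06 against 5.19 and 5.64 on day 2 (-3.20, SE 0.41, adjusted p = 1.35e-05, floored -3.0). Fat4, the atypical cadherin through which stroma acts on progenitors, was at 10.46 and 10.05 against 7.76 and 7.80 on day 1 and at 10.13 and 10.49 against 7.38 and 7.77 on day 2. All LIF arrays lay more than 2 log2 units below all controls (-2.60, SE 0.34). Capn6, a calpain-like protein, fell by 3.16 on the log2 scale, from 8.93 or more in every control to 6.61 or less in every LIF array.

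Other stromal transcription factor genes that fell were Bnc2 (-2.62), Ebf1 (-2.37), Ebf2 (-2.44, floored -0.32), Hic1 (-1.89), Nr2f1 (-1.37), Twist1 (-1.24), Zeb1 (-0.82), Meis2 (-0.78), Pbx3 (-0.71), Alx1 (-0.62, floored -0.18) and Meis1 (-0.57). The cell cycle inhibitor Cdkn1c (-1.16) and the guidance ligand Slit2 (-0.94) fell too. Not every stromal gene was lower: Tcf21 (0.47), Tbx18 (0.40) and Penk (0.38) were above 0, and Pdgfra (-1.11) and Pdgfrb (-0.35) below, none past the test. Of 15 retinoid pathway genes 2 rose and 5 fell. Rarb, a retinoic acid receptor and itself a retinoic acid target, was at 8.70 and 8.19 against 6.91 on both LIF arrays on day 1 and at 7.92 and 7.83 against 6.28 and 6.50 on day 2 (-1.51, SE 0.25). The binding protein gene Crabp1 (-1.73, SE 0.33), the receptor Rxrg (-1.71, SE 0.27), the synthesis enzyme Aldh1a2 (-0.70) and Dhrs3 (-0.78) also fell, while the retinol enzymes Rdh10 (1.99, SE 0.34) and Lrat (1.42, floored 0.30) rose.

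Collagen, proteoglycan and laminin genes were lower as well, with less certainty. Of 29 collagen and collagen-processing genes 9 fell and 1 rose (median -0.40), where 12.6% of all genes tested fell and 11.4% rose. Fits that left out 1 array called 3 to 7 of them lower, and the 6-array fit 2 (Col1a2 and Plod1). Col1a1, the main fibrillar collagen chain, was at 9.96 and 10.31 in the day 1 controls against 8.11 and 8.86 with LIF, and at 10.94 and 11.09 against 7.88 and 8.25 on day 2 (-2.30, SE 0.66, adjusted p = 0.0138). Col5a2 (-2.08), Col6a3 (-1.91), Col1a2 (-1.68, SE 0.33) and Col3a1 (-1.08) fell, and Col9a1, a cartilage collagen, rose by 1.38. Of 8 leucine-rich proteoglycans 3 fell, Aspn (-3.38, floored -1.49), Lum (-2.82, floored -2.58) and Dcn (-2.45). Of 23 laminin and integrin genes 7 fell, led by Lama2 (-1.92, SE 0.32), and Nid2 rose by 0.68, whereas 1 fell and 0 rose in the 6-array fit. Of 29 matrix protease genes 4 fell, a share near the 12.6% of all genes tested (list median -0.02). They were Adamts9 (-2.71), Mmp16 (-1.86), Mmp2 (-0.71) and Ctsk (-0.68), and the aggrecan-cleaving Adamts4 rose by 1.11.

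Cholesterol synthesis had the largest share of members that rose among the 39 lists: 16 of 22 rose and 0 fell, with a median of 0.72. On day 1 alone 4 rose and on day 2 alone 9, where 3.95% and 3.61% of all genes rose. Leaving out 1 array gave 9 to 15 and the 6-array fit 6 (median 0.66). The list's mean level was 8.88 to 9.44 in the controls and 9.60 to 9.98 in the LIF arrays. Fdps, farnesyl diphosphate synthase, was at 11.34 and 11.78 against 12.51 and 12.53 on day 1 and at 10.98 and 10.99 against 12.31 and 12.29 on day 2, with no overlap (1.13, SE 0.15, adjusted p = 1.35e-05). The sterol enzymes Hsd17b7 (1.16), Msmo1 (1.07), Dhcr7 (1.05), Mvd (0.86) and Sqle (0.64), the sterol sensor gene Insig1 (0.87) and the regulator Srebf2 (0.38) rose. The promoter of Fdps is shown because NF-Y, which binds CCAAT, acts beside the sterol regulator at such promoters. Capitals mark CCAAT or its complement, 130 and 85 bases before the start (GRCr8, chr2:176804817-176805066, minus strand, from RefSeq).
Fdps: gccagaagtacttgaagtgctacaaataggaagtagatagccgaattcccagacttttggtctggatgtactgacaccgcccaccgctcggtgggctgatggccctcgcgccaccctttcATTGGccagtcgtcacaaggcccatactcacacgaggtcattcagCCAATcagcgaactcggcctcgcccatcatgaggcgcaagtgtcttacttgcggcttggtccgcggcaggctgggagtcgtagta
CCAAT, searched on both strands, was in 37.5% of all promoters and 38.8% of tested genes. It was in 14 of 18 matched promoters of the cholesterol list, and in 40.6% of genes that rose and 35.5% of those that fell over all genes.

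Fatty acid genes rose in 8 of 23 cases and fell in 1. Scd, stearoyl-CoA desaturase, was at 8.13 and 9.0 against 10.20 on both LIF arrays on day 1 and at 7.71 and 7.38 against 10.17 and 9.41 on day 2 (1.94, SE 0.30). Fabp5 (1.20, SE 0.13), Acsl4 (1.11), Fads2 (0.88) and Elovl6 (0.54) rose. The 1 gene that fell was Cpt1a, which admits fatty acids to mitochondrial oxidation. It was at 9.61 and 9.18 against 7.6 and 8.15 on day 1 and at 9.90 and 9.86 against 8.21 on both LIF arrays on day 2 (-1.59, SE 0.18, adjusted p = 2.51e-06).

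Glycolysis genes rose in 7 of 22 cases, among them Hk2 (1.42, floored 0.69), the lactate carrier Slc16a1 (1.26), Eno1 (1.02) and Ldha (0.74), and 1 fell, with 3 higher in the 6-array fit. Of 19 hypoxia genes 2 rose and 3 fell, where 11.4% of all genes tested rose and 12.6% fell. Those that fell included the HIF hydroxylase Egln3 (-1.85, SE 0.30, floored -1.40) and Ndrg1 (-1.31). Of 27 amino acid stress and serine genes 4 rose and 0 fell, a share of rises near the 11.4% of all genes tested. The cystine carrier Slc7a11 (1.59, SE 0.37) and Shmt2 (0.88) were among those that rose. Of 16 iron genes 2 rose and 4 fell. Slc40a1, the iron exporter ferroportin, was at 10.04 and 10.23 against 7.86 and 7.47 on day 1 and at 9.71 and 9.72 against 7.16 and 7.80 on day 2 (-2.35, SE 0.31, adjusted p = 2.05e-05), and the transferrin receptor Tfrc rose by 1.05. Of 14 glucocorticoid and metallothionein genes 0 rose and 5 fell, led by Angptl4 (-1.25) and Klf9 (-0.98), with 0 called in the 6-array fit.

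Of 43 DNA replication genes 19 rose and 0 fell, with a median of 0.25. On day 1 alone 8 rose and on day 2 alone 6, where 3.95% and 3.61% of all genes rose. Fits that left out 1 array called 13 to 19, and the 6-array fit 6 (median 0.29). The list's mean level was 9.16 to 9.47 in the controls and 9.41 to 9.75 with LIF, and LIF arrays were higher within each day. Gmnn, geminin, which limits replication to once per cycle, was at 9.09 and 9.32 against 10.06 and 10.15 on day 1 and at 8.87 and 8.85 against 9.80 and 9.73 on day 2 (0.90, SE 0.13). Orc1, of the origin recognition complex, rose by 1.23 (SE 0.29), the G1/S cyclin Ccne1 by 0.76 (SE 0.12), the sliding clamp Pcna by 0.50 and the helicase subunits Mcm7 by 0.52 and Mcm3 by 0.46. Mitosis and spindle genes rose in 5 of 45 cases and fell in 1, a share near the background, with Mad2l1 at 0.88 and Aurka at 0.47.

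The promoter of Mcm7 is shown because it holds, 52 bases before the start, the E2F-type motif of S-phase genes, searched as TTTCGCGC or TTTGGCGC on both strands and marked in capitals (GRCr8, chr12:22163179-22163428, minus strand, from RefSeq).
Mcm7: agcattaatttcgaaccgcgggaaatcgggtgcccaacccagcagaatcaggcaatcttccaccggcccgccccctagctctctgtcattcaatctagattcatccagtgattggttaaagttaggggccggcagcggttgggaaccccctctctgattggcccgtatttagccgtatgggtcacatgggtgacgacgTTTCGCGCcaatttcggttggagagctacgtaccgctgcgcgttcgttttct
This motif was in 0.792% of all promoters and 1.48% of tested genes. It was in 14 of 37 matched promoters of the replication list, of which 5 belonged to the 16 matched members that rose. Over all genes it was in 1.80% of those that rose and 0.676% of those that fell.

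Of 22 p53 target and arrest genes 2 rose, Gadd45g (1.23) and Cdkn2b (0.64), and 2 fell, Cdkn1c and Sesn3 (-0.79). Over all genes tested 11.4% rose and 12.6% fell. Of 24 genes of the BCL2 family and caspases 4 rose and 1 fell, and 1 was called lower and 0 higher in the 6-array fit. Bcl2l11, the death-promoting BH3 protein BIM, was at 11.06 and 10.92 against 9.31 and 9.57 on day 1 and at 10.87 and 10.86 against 9.74 and 10.04 on day 2. All LIF arrays lay below all controls (-1.26, SE 0.14, adjusted p = 2.80e-06), while Bcl2, which opposes it, rose by 0.46.

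Markers of other cell types moved beside these results. Of 18 endothelial genes 9 fell and 0 rose (median -0.43), and 2 fell in the 6-array fit. Kdr, the main VEGF receptor, was at 9.64 and 9.13 against 8.0 and 8.02 on day 1 and at 8.33 and 8.51 against 6.70 and 7.21 on day 2 (-1.42, SE 0.27). The list's mean level was 6.99 to 7.66 in the controls and 6.48 to 7.02 in the LIF arrays. Of 9 erythroid genes 5 fell and 1 rose (Tfrc), and 2 fell in the 6-array fit. The embryonic globin Hbz was at 11.82 and 11.47 against 10.51 and 10.45 on day 1 and at 10.93 and 11.28 against 8.27 and 8.76 on day 2 (-1.88, SE 0.34). The mean level of the erythroid list was 8.30 to 8.84 in the controls and 7.27 to 8.37 with LIF. The part of these cells in the falls of other genes was not tested.

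Ureteric bud genes rose in 1 of 11 cases (Krt18) and fell in 0, and the list's mean level was 5.85 to 5.92 in the controls and 6.05 to 6.28 with LIF, with Cdh1 below the threshold throughout. Of 13 macrophage and leukocyte genes 1 rose (Coro1a, 1.20) and 2 fell, the mannose receptor Mrc1 (-1.41, floored -1.33) and C1qb (-0.65). List levels were 6.43 to 6.82 in the controls and 6.33 to 6.45 with LIF. Of 12 neuron and Schwann cell genes 3 rose (Tubb3, on a probe set that can bind related transcripts, 1.45; Ngfr, 1.43; Elavl4, 1.24) and 0 fell, with levels of 6.48 to 6.73 and 6.87 to 6.97. Of 7 cartilage genes 1 rose (Col9a1) and 0 fell, with levels of 6.86 to 7.27 and 7.31 to 7.6. Of 12 skeletal muscle genes 1 fell, the master regulator Myod1, which was above the threshold only in the day 2 controls (7.16 and 8.38). The muscle list's level was 6.35 and 6.47 in the day 1 controls and 7.79 and 7.96 in the day 2 controls, against 6.08 to 6.34 in the LIF arrays. Myod1's call was lost in 7 of 8 fits that left out 1 array.

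Other values and calls that moved are given here together. With the mean of all probe sets of a gene in place of the brightest, the differences of called genes that shrank by more than 1.5 times but stayed called were those of Selenop (-1.42), Adamts9 (-1.25), C1qtnf12 (1.42), Rdh10 (1.17), Col6a3 (-1.04), Cpt1a (-1.03), Rxrg (-0.80), Tubb3 (0.78), Slc16a1 (0.72), Kdr (-0.64), Bcl2l11 (-0.54) and Sesn3 (-0.30). Those of Ndrg1 (-0.76), Klf9 (-0.32), Synpo (-0.29), Mmp2 (-0.28) and Srebf2 (0.20) were no longer called. The 6-array fit gave Ebf2 -1.55, Hk2 0.82, Cdkn2b 0.32, Pias1 -0.29, Bcl2 0.27, Hp 0.24 and Hif1a 0.20, none of them called, and leaving out control day 1 replicate 1 alone gave Ebf2 -1.57, Hif1a 0.31, Bcl2 0.28 and Hp 0.26, likewise not called. With the actin 3'/5' ratio as a covariate Hk2 was at 0.85 and Pias1 at -0.35, both called, and Cdkn2b at 0.37, not called. Of 224 called genes followed through every alternative, 149 kept their call in each of the 8 fits without 1 array, and the calls lost per fit numbered between 16 (without control day 1 replicate 2) and 61 (without control day 1 replicate 1). Cxcl12, Col3a1 and Nid2 lost theirs in all 8 fits. Angptl4, Bmp5, Elavl4, Meis2 and Pim2 lost theirs in 7, and C1qb, Col9a1, Egr1, Irf7, Lrp2, Ptgis, Ptgs2 and Synpo in 6. Cdkn2b, Hif1a, Socs2, Srebf2 and Tnip1 lost theirs in 5, and Alx1, Bcl2, Ctsk, Fgf9, Gadd45g, Hk2, Ndrg1, Nfkbib and Skil in 4. Col5a2 and Elovl6 lost theirs in 3 fits.

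Single arrays decided further calls. Leaving out control day 1 replicate 1 ended those of Ebf2, Hp, Hsd17b7, Mcm7, Meox2, Six4, Sqle, Col6a3, Fgf8, Meis1, Pias1 and Pias3. Leaving out LIF day 2 replicate 1 ended those of Cebpb, Col1a1, Fgf8, Meis1, Pias1 and Plce1. Those of Mrc1, Notch1, Col1a1 and Col6a3 ended without LIF day 1 replicate 1, those of Crym, Etv5 and Pias3 without LIF day 1 replicate 2, and that of Plce1 also without control day 1 replicate 2.

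**Figure D3:**
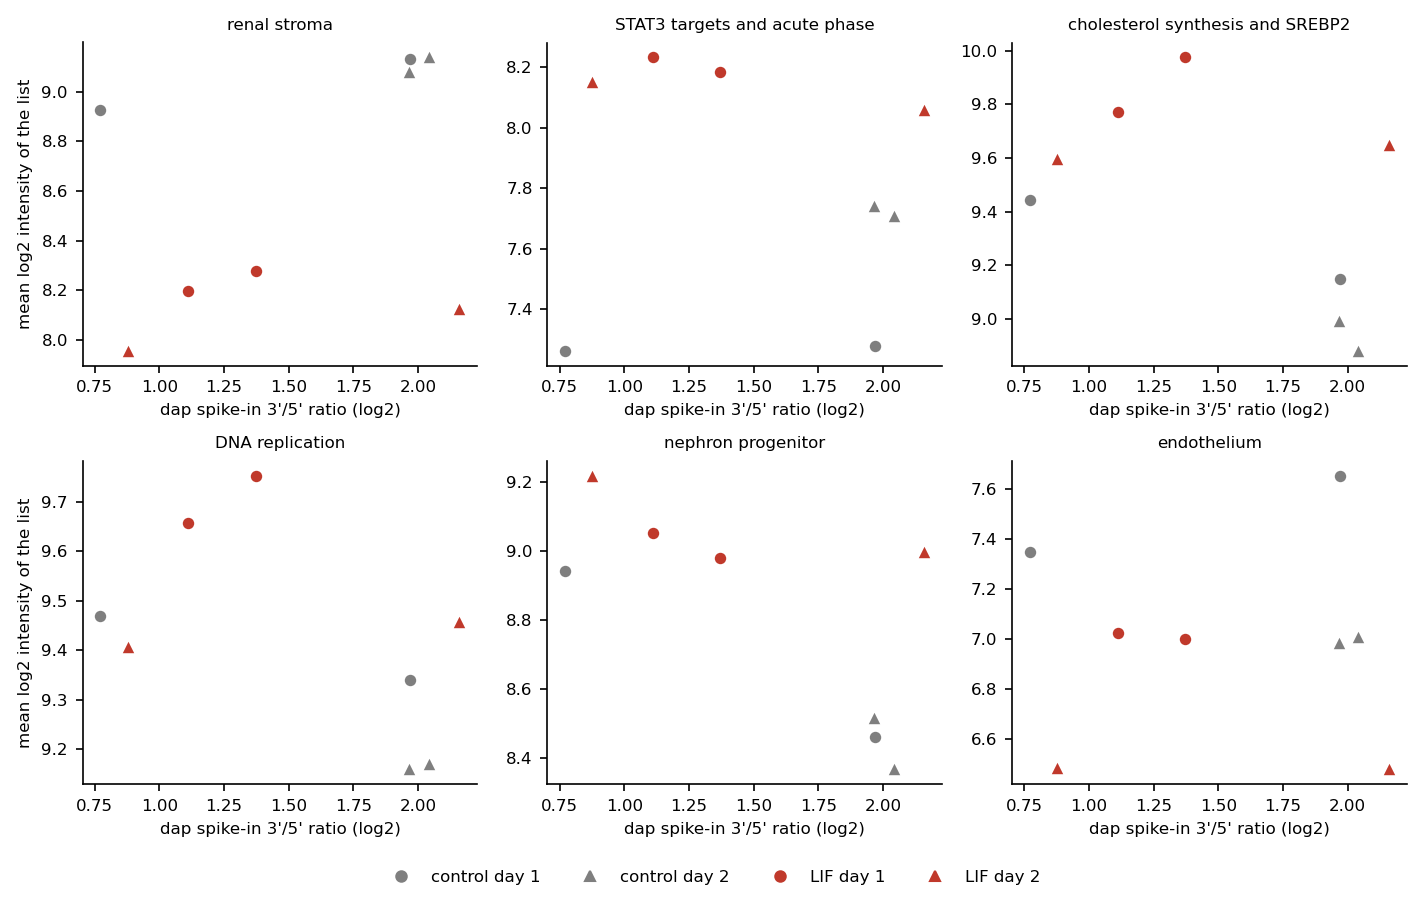
Mean log2 intensity of 6 lists (y axis) in each of the 8 arrays against the dap spike-in's 3'/5' ratio on that array, on the log2 scale (x axis); grey is control, red LIF, circles day 1, triangles day 2. Control day 1 replicate 2 (ratio 0.77) lies with the other controls for the STAT3 list (7.26) and, as the lowest of them, for the stroma list (8.92), but between the other controls and the LIF arrays for the cholesterol list (9.44), next to the LIF arrays for the nephron progenitor list (8.94) and among them for the replication list (9.47), while LIF day 2 replicate 2 (ratio 2.16) lies at 8.06, 8.12, 9.65, 9.0 and 9.46 in these lists.

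The days were also tested apart, with 2 arrays against 2. On day 1 LIF changed 949 genes (8.33%), 450 higher and 499 lower, and on day 2 it changed 927 (8.14%), 411 higher and 516 lower. Both days called 394 genes, 41.5% of the day 1 calls and 42.5% of the day 2 calls, of which 173 rose and 220 fell on both days. Over the 11388 genes the differences of day 1 and day 2, which share no array, had a Pearson correlation of 0.754 and a Spearman correlation of 0.70. Of the 2733 genes called in the mean, 2727 (99.8%) had the same sign on both days, against 75.8% of all genes. A call in the mean favours genes with the same sign on both days, so the 99.8% does not measure agreement between the days. Over all genes tested, LIF and control arrays did not overlap on either day for 2009 genes that were higher (17.6%) and 2010 that were lower (17.7%). In the 6-array fit, which leaves 1 control on day 1 and 1 LIF array on day 2, 146 genes were called on day 1 and 42 on day 2. Leaving out any 1 array of a day, whichever group it came from, left 164 to 617 calls on day 1 and 36 to 485 on day 2, where the lone array is assumed to vary like those of the other groups.

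The difference between the days was called for 0 of 11388 genes by limma (0%; 456 at an unadjusted p under 0.05; smallest adjusted p 0.135), so a gene called on 1 day only is not shown to differ between days. Values that stood apart by size were those of Tnfaip6 (5.34 on day 1, 2.71 on day 2), Plac8 (3.72 and 1.09), Wnt4 (2.55 and -0.21) and Spp1 (2.89 and 0.86), higher on day 1. Meox2 (0.61 and 2.16), Gna14 (0.50 and 2.46, floored 0 and 0.99) and Frzb (0.99 and 2.23) were higher on day 2, and the globin gene Hbg1 (-0.75 and -3.37) lower there. These genes were picked for these values.

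**Figure D4:**
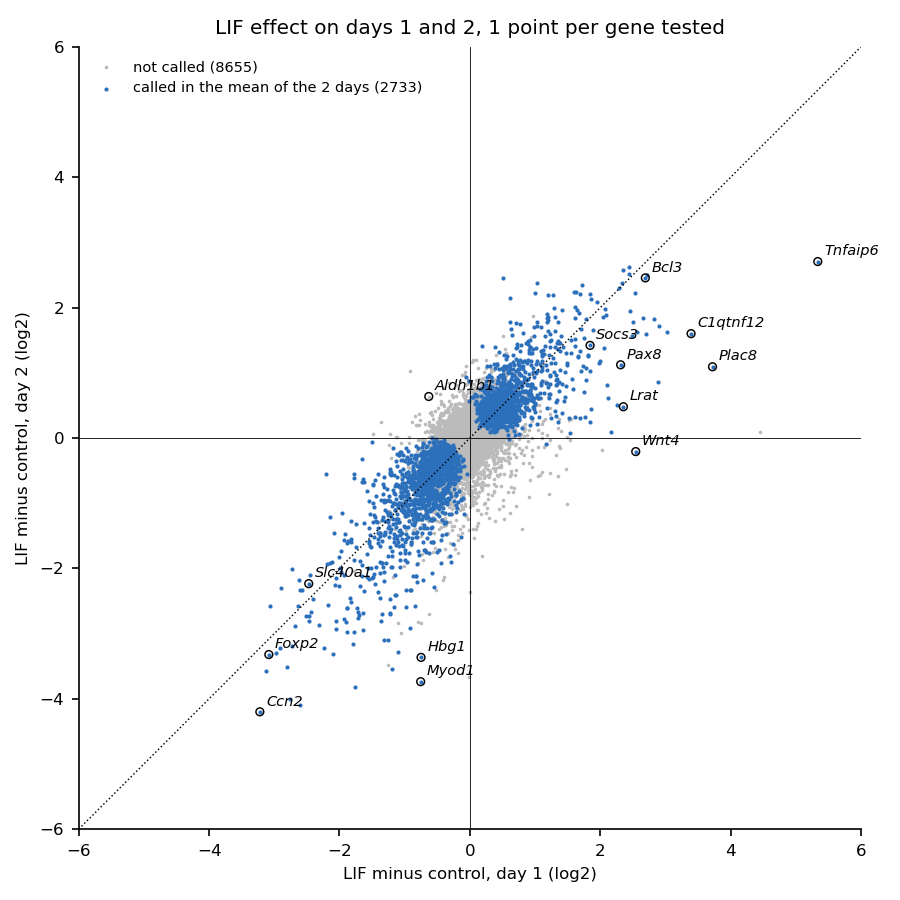
LIF minus control on day 1 (x axis) against day 2 (y axis) on the log2 scale, 1 point per gene tested; blue points are the 2733 genes called in the mean of both days, grey the rest, the dotted line marks equal differences and named genes are circled. Most blue points lie in the lower left and upper right quadrants, which their selection by the mean of both days favours. Wnt4 lies near 0 on the day 2 axis.

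LIF was further tested directly against the other inducers on days 1 and 2, without use of the control arrays. Against NGAL 589 genes (5.17%) differed, 310 higher (2.72%) and 279 lower (2.45%) with LIF, and against the ANX fraction, whose content the labels do not state, 71 (0.623%), 31 higher (0.272%) and 40 lower (0.351%). Leaving out 1 array left 157 (without LIF day 2 replicate 1) to 565 calls against NGAL, and 6 (without ANX day 1 replicate 2) to 58 against ANX. Against the shared control arrays NGAL changed 0 genes by limma (0%; 799 at an unadjusted p under 0.05; smallest adjusted p 0.101) and ANX 2309 (20.3%). The log2 dap spike-in ratios were 1.63, 0.91, 1.48 and 2.15 with NGAL and 0.88, 0.84, 1.05 and 2.35 with ANX. In the controls they were 1.97, 0.77, 1.97 and 2.04. The part of this ratio in the 0 and 2309 calls was not tested. LIF, NGAL and ANX differences from control share the control arrays and are given side by side only. Tnfaip6 was at 4.02, 1.17 and 3.39, and Foxp2 at -3.20, -1.13 and -3.50. In the STAT3 list 11 of 37 genes were higher with LIF than with NGAL and 0 lower (2.72% of all genes were higher and 2.45% lower), and 1 was higher than with ANX (Socs3, 1.05; 0.272% of all genes) and 1 lower (Lcn2, -1.48; 0.351% of all genes). In the stroma list 6 of 34 were lower than with NGAL, among them Foxp2 (-2.07), Capn6 (-2.09) and Fat4 (-1.28), and 1 lower than with ANX (the netrin gene Ntn1).

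Differences from control, from NGAL and from ANX were all called in the same direction for 33 genes, 26 higher and 7 lower with LIF, a set chosen after its values were seen whose comparisons share the LIF arrays. Of these, Igtp, Tspan5 and Gna14 kept all 3 calls in each of 16 fits that left out 1 array. Eya2 was at 7.33, 8.15, 7.33 and 8.67 with NGAL and at 7.94, 7.48, 7.08 and 8.53 with ANX, below the lowest LIF array (9.39). Its differences from control, NGAL and ANX were 2.38, 2.02 and 2.13. Igtp was at 5.98 to 6.55 with NGAL and 6.18 to 6.82 with ANX against 7.39 or more with LIF (1.51, 1.63 and 1.5). Tspan5, a tetraspanin that carries the protease ADAM10, differed by 1.21, 1.49 and 1.04.

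Socs3 was at 6.55 to 6.87 with NGAL and 6.88 to 7.70 with ANX, against 7.80 to 8.69 with LIF (1.63, 1.60 and 1.05). Draxin, an axon guidance protein, differed by 2.32 (floored 2.10), 2.64 and 2.50, and Igfbp2, a binding protein of insulin-like growth factors, by 1.79, 2.05 and 1.57. Fgfr2 differed by 0.63, 0.90 and 0.95. Gna14, a G protein subunit, was above the threshold only with LIF on day 2 (6.30 and 7.26), so its difference from control was 0.50 floored. Lower with LIF were Mrc1 (-1.41, -1.59 and -1.89), Nptx1 (-1.68, -1.67 and -0.98) and Cpt1a (-1.59, -0.97 and -0.79). The LIF means of Mrc1 and Nptx1 lay below the threshold, and their floored differences from control were -1.33 and -0.57. For Nptx1 the floored difference on day 2 was -0.10. Its ANX means (5.78 and 5.52) lay below the threshold too, so no direction is read from its call against ANX. Jag1 and Pax8 were not in this set: Jag1 was 0.46 above ANX (adjusted p = 0.88).

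**Figure D5:**
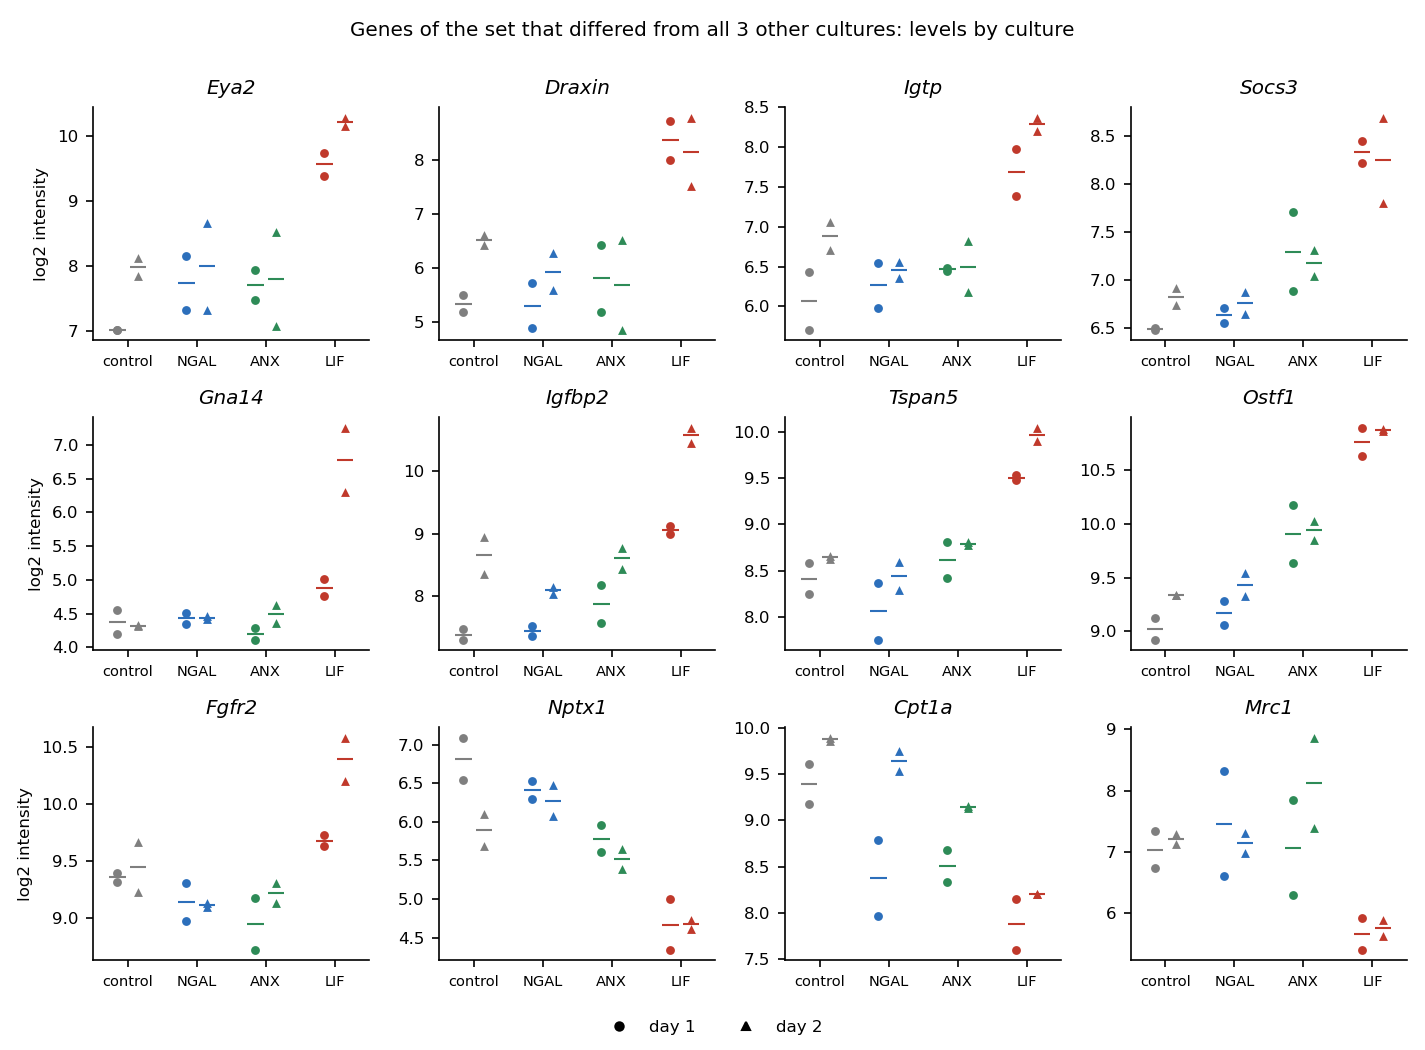
Log2 intensity (y axis) of 12 of the 33 genes in control (grey), NGAL (blue), ANX (green) and LIF (red) cultures, circles day 1 and triangles day 2, with short lines for the mean of 2 arrays. The 4 LIF points of Eya2 and Igtp lie above every other point, and the LIF points of Cpt1a lie below all control points but overlap 1 NGAL array of day 1 (7.97).

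LIF cultures were carried on to day 7, without controls at those times, so the levels are given with no test. Bcl3 stayed between 8.14 and 9.16 in the group means of days 1, 2, 3, 4, 5 and 7, against 5.52 in fresh mesenchyme, and Socs3 between 7.76 and 8.33, against 6.83. Tnfaip6 was at 9.70, 7.55, 6.71, 6.0, 4.93 and 4.84 on these days. Each level up to day 4 was lower than the one before, and days 5 and 7 lay below the threshold, like fresh tissue (4.57). Pax8 was at 9.26, 8.73 and 8.50 on days 1 to 3 and at 10.26, 10.40 and 10.26 on days 4, 5 and 7. Jag1 followed the same order, with 8.16, 8.0 and 7.57 and then 9.37, 9.73 and 9.64. Foxp2, at 9.03 in fresh mesenchyme, stayed between 4.39 and 5.76. Among epithelial genes, Cdh1 was below the threshold up to day 5 (5.07) and at 6.73 on day 7, Epcam was at 5.47 on day 1 and 8.99 on day 7, and Krt18 at 6.75 and 8.71.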

How the data were processed

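RNA from rat metanephric mesenchyme was measured on Affymetrix rat expression arrays. The values are in the unit intensity, as deposited by the authors, made with RMA per the submitters' processing notes, which give no version. The lowest value was 7.6, the highest 17972 and array medians lay between 83.3 and 88.4, a linear scale, so log2 was taken. An array has no read depth, and the number of arrays limits the precision (median SE 0.13 for the mean of both days).

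The platform annotation, matched to RefSeq genes, gave 1 gene to 20832 of 31099 probe sets (14218 genes), several to 436 and none to 9831. The probe set with the highest mean over all arrays stood for its gene. A gene was tested if at least 1 group mean was above the signal threshold, the 40th percentile over all arrays (log2 5.79, intensity 55.2); 11388 passed, and for 95 the probe set may cross-hybridise with related genes. Group means over 42 arrays in 21 groups were fitted with limma 3.58.1 in R 4.3.3 (21 residual degrees of freedom, empirical Bayes variances with a trend, Benjamini-Hochberg adjustment). Replicates are biological per the labels, and p-values measure the spread between these samples only. The fit was tested on simulated data.

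The members, the 39 gene lists (973 genes, 778 tested) and the comparisons were chosen with earlier results of these data known. Named genes were the 15 largest rises and 15 largest falls among called genes whose arrays did not overlap on either day, up to 6 called members per list by adjusted p, and a list of anchor genes; other genes named belong to the lists described, or the text says that they were picked by their values. Promoters were matched by gene number to RefSeq windows of GRCr8 and searched for motifs. Alternatives were the filter, the normalization, the choice of probe set, a 2-fold minimum, the variance model, weights per array, a fit to the compared arrays alone, replicate blocks, 3'/5' ratios as covariates, the 6-array fit and each array left out.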

Additional observations from a re-analysis of the deposited data

Results flagged for a closer look

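Aldh1b1, a mitochondrial aldehyde dehydrogenase, was the 1 gene called on both days in opposite directions. It was at 6.08 and 6.43 in the day 1 controls against 5.51 and 5.74 with LIF, and at 5.44 and 5.55 in the day 2 controls against 6.13 and 6.14. The difference was -0.63 on day 1 (floored -0.47) and 0.64 on day 2 (floored 0.34). The test of day 2 minus day 1 (1.27) had an adjusted p of 0.135 by limma. Lef1, a Wnt target, and Cdh1 also had arrays that separated one way on day 1 and the other way on day 2. Lef1 was 0.31 higher on day 1 and 0.51 lower on day 2, a day difference of -0.82 that missed the threshold (adjusted p = 1). For Cdh1 the day difference was 0.21, with all 8 arrays below the signal threshold.

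Outside the genes reported, 794 of 5057 probe sets without a single annotated gene were called, 279 higher and 515 lower with LIF, of 3786 called among 20868 probe sets tested. They included 1382331_at (2.67) and 1377161_at (2.56), which were higher, and 1385098_at (-4.68) and 1376944_at (-3.45), which were lower; the files do not pair them with a gene.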

How the results depend on the processing

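Of the 224 named genes called in the mean of both days, all kept their sign in each of the 21 alternatives beside the 2-fold minimum, 110 lost their call in none, and 113 kept it in the 6-array fit; the causes of lost calls were not tested, and fewer arrays are part of them where arrays are left out. A 2-fold minimum left 494 genes in the mean of both days, 309 on day 1, 393 on day 2, 158 against NGAL and 31 against ANX. Array weights gave 3188 on day 2, 1 for the day difference, 1158 against NGAL and 180 against ANX. With only the arrays compared the counts were 593 on day 1, 1949 on day 2, 14 for the day difference, 919 against NGAL and 201 against ANX. Quantile normalization gave 1 day difference. The 6-array fit, chosen after seeing the data, gave 829 in the mean, 146 on day 1 and 42 on day 2. Leaving out 1 array gave 1528 to 2842 in the mean, 164 to 617 on day 1, 36 to 485 on day 2, 0 to 1 for the day difference, 157 to 565 against NGAL and 6 to 58 against ANX. The filter, centring, probe set average, variance trend and 3'/5' covariates kept the counts they were run for within 1.5 times.

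Sign changes were confined, among the named genes and alternatives run, to 6 genes that were not called. Averaging a gene's probe sets gave Cish 0.062 and Jak1 0.054. The spike-in ratio as a covariate gave Jak2 -0.068, and the actin ratio Hes1 -0.036, Il6st 0.084 and Jak2 -0.21. The 6-array fit gave Il6st 0.11 and Jak2 -0.28. Leaving out 1 array gave -0.17 to 0.28 for Jak2, -0.42 to 0.54 for Stat3, -0.24 to 0.004 for Cish and -0.017 to 0.19 for Hes1. For 800 called genes 870 of 1065 other measured probe sets had the same sign, and 3 were called the opposite way (Evl, G3bp1 and Setdb1).

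Whether replicate numbers pair the samples was not settled: of the 6 pairs of groups not every one had same-numbered deviations that correlated over 0.1. Replicates also differed in the spike-in ratio, so these correlations cannot exclude a pairing. The correlation was -0.38 between control and LIF on day 1, 0.02 between them on day 2, 0.60 between LIF on day 1 and day 2, -0.65 between day 1 control and day 2 LIF, -0.11 between the controls of both days and 0.09 between day 1 LIF and day 2 control. A replicate block gave 3089 genes in the mean, 1191 on day 1, 1219 on day 2, 0 for the day difference, 826 against NGAL and 85 against ANX; the numbers crossed gave 1033 on day 1 and 1070 on day 2. No array offers a read depth, and levels below log2 5.79 carry no order.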
